A study of Homo sapiens with 6 samples.

Results

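Divergent transcripts are long non-coding RNAs (lncRNAs) that start beside a protein-coding gene and run away from it on the other strand. Their gene symbols are built from the name of that neighbour and the ending -DT, so that GARS1-DT lies beside GARS1. Members were the rows of the gene table whose symbol ends in -DT and whose mean over the 6 libraries was at least 0.5 FPKM (fragments corrected for transcript length and library size). This selected 59 of 138 -DT rows among 42495 gene rows, and the gene named before -DT was found in the table for all 59. The members were thus chosen by their mean FPKM over all 6 libraries.

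Many mammalian promoters fire in both directions. The coding direction is productive, whereas the upstream transcript usually ends early, at poly(A) signals that U1 snRNP does not mask, and is removed by the nuclear RNA exosome with its adaptor complexes. Integrator and the Restrictor complex also stop such transcription early. Annotated -DT genes are those upstream transcripts that are long and abundant enough to have been catalogued, and a few are known to act on their neighbour, but most have no assigned function. Where a pair shares a stretch of promoter DNA, comparing its members asks whether both directions of a promoter differed together.

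Panc-1, an established human cell line from an epithelial carcinoma of the pancreatic duct, received, over 72 h, medium in which cancer-associated fibroblasts (CAFs) had grown. CAFS-CM came from the CAF line of a patient whose tumour was sensitive to platinum-based chemotherapy, and CAFR-CM from that of a patient with a resistant tumour. Each group had 3 libraries of rRNA-depleted total RNA, and the medium within a group came from 1 CAF line, so a difference between the groups is a difference between these 2 media. Panc-1 cells without conditioned medium were not analysed here. The deposited FPKM summed to between 660604 and 691568 in CAFS-CM libraries and between 666560 and 701406 in CAFR-CM libraries, and read totals were not used here, so the number of fragments behind a value is unknown. Summed epithelial markers stood at 5922 to 6163 FPKM in CAFS-CM and at 4959 to 5172 in CAFR-CM (2 of 6 higher, CDH1 and EPCAM, and 2 lower, KRT18 and KRT19). Summed fibroblast markers stood at 42.0 to 48.3 and 54.2 to 60.2 FPKM (COL1A1 higher, and FAP and PDPN at 0 in all 6 libraries), leukocyte markers at 34.4 to 37.4 and 36.9 to 42.9, and endothelial markers at 1.55 to 1.63 and 2.09 to 2.55. Their part in the results was not tested.

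The names were checked against the GENCODE v44 annotation of GRCh38. All 58 pairs that could be placed (ME3-DT was not) lay on opposite strands, and the nearest annotated starts of a pair were within 300 bases of each other in 52 pairs. The median distance was 112.5 bases and the largest, at TMED2, 447 bases. In 50 pairs the divergent start lay upstream of the coding start, so that both RNAs are transcribed outward from the nearest starts. For 57 of 58 the partner was also the nearest protein-coding start on the other strand, the exception being CHKB-DT, where it was that of the CHKB-CPT1B readthrough gene. Exons of the transcript and of its partner overlapped in 20 pairs, 12 of them among those 50 pairs, and by over 10% of the transcript in 3 of them, with 42.65% for KDM2B-DT, 14.12% for CD2BP2-DT and 11.75% for UVRAG-DT. The library kit marked strand, but the sources used here do not say whether the counting used it, so reads from the overlapping parts cannot be told apart. RefSeq lists 4 of the members under other names, FBXO30-DT as EPM2A-DT, MAFG-DT as MILIP, FAM160A1-DT as FHIP1A-DT and CCDC84-DT as CENATAC-DT.

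**Figure D1:**
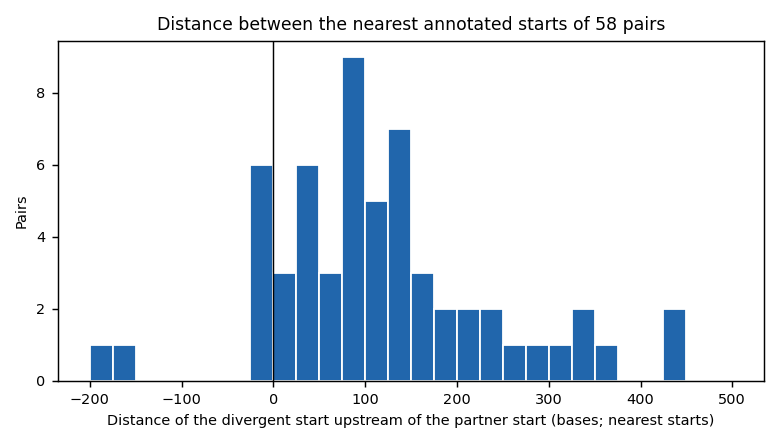
Distance from the divergent start to the partner start in bases (x axis, positive where the divergent start lies upstream) against the number of pairs (y axis), for the nearest annotated starts of 58 pairs. Most pairs lie to the right of 0, and 52 lie within 300 bases.

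RefSeq promoter windows (250 bases before to 50 bases after a start, GRCh38.p14, whereas the deposited table was made on GRCh38.p13) were found for 47 divergent transcripts and 47 partners, and for both genes in 43 pairs. In 30 of these pairs the RefSeq starts faced away from each other within 250 bases, at a median of 140.5 bases. The windows below are shown for 6 pairs whose divergent transcript differed between the groups (RPL37A, USP46, RAB30 and FZD4, higher, and NCK1 and PCCA, lower). Each is written 5′ to 3′ on the strand of the coding partner, with the stretch between both starts in capitals. The coding gene is read rightward from the end of the capitals, and the divergent transcript leftward from their beginning on the other strand. The stretch measures 92 bases at RPL37A (chr2:216498594-216498893, plus strand), 105 at USP46 (chr4:52659252-52659551, minus strand), 169 at RAB30 (chr11:83071848-83072147, minus strand), 226 at FZD4 (chr11:86955346-86955645, minus strand), 145 at NCK1 (chr3:136861958-136862257, plus strand) and 150 at PCCA (chr13:100088843-100089142, plus strand). These are RefSeq starts. The nearest GENCODE starts lay 55, 105, 129, 221 and 43 bases apart at RPL37A, USP46, RAB30, FZD4 and PCCA. At NCK1 the divergent GENCODE start lay 5 bases downstream of the coding start.
RPL37A: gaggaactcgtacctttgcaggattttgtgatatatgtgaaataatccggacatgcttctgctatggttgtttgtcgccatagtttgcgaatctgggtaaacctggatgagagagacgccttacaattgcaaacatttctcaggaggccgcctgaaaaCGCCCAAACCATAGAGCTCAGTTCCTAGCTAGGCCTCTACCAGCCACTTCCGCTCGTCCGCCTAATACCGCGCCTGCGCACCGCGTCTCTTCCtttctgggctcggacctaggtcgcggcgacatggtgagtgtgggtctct
USP46: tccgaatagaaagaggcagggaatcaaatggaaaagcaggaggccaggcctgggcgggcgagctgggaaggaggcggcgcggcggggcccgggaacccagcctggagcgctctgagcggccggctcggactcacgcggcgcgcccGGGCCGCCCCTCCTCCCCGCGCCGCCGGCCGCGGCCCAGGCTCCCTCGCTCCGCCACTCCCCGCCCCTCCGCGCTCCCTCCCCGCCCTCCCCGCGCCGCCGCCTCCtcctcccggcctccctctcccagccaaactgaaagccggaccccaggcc
RAB30: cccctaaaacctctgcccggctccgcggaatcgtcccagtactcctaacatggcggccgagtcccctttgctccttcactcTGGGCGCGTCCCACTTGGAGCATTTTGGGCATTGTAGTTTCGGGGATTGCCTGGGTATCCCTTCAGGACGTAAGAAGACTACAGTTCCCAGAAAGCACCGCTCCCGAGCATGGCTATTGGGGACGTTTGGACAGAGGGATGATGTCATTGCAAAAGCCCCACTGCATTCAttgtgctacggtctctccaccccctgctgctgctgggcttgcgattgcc
FZD4: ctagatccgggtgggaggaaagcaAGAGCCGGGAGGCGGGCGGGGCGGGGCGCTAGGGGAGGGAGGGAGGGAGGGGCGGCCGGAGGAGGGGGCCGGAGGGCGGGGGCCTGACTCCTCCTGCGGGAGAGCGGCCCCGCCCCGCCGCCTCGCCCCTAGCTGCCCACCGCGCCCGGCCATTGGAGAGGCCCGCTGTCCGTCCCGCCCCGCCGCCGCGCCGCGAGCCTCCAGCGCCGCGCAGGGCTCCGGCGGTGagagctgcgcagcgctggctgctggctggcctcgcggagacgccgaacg
NCK1: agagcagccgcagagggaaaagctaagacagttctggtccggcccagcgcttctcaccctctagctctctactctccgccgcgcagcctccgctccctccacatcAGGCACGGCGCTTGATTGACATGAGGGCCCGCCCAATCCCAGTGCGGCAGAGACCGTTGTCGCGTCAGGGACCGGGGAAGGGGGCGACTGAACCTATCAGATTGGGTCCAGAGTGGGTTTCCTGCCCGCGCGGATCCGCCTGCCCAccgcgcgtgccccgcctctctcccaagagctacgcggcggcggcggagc
PCCA: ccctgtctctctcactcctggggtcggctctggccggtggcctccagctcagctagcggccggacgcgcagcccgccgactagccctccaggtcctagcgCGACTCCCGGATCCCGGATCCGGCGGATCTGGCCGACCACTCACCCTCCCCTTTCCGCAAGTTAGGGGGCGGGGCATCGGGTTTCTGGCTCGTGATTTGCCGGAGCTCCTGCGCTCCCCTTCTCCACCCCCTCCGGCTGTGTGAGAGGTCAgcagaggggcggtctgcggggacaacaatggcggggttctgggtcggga

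Motifs were counted in the windows of all matched members. GGGCGG, the core of the GC box bound by Sp1-type factors, was found on either strand in 78.72% of the 47 divergent windows and 72.34% of the 47 partner windows, against 44.59% of 27305 RefSeq promoter windows with 1 per gene. TATAAA was found in 2.13% and 6.38%, against 11.95%. CCAAT was found in 42.55% of the divergent windows, against 35.7% of all windows. The median number of CpG was 30 in divergent windows and 29 in partner windows, against 14, and the median GC content 68.3% and 67.0%, against 58.3%. Only 1 form of the NF-kB motif was searched, so sites of other forms would be missed. This form and TGATGNAA, the motif of ATF4-type factors, searched on either strand, were in 0 of 47 divergent windows. Of all windows, 1.92% and 3.67% held them. The result says only that these letters are not in these windows. Whether the windows hold NF-kB sites of another form was not tested. The paired windows overlap, so they are not independent of each other.

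The 59 divergent transcripts were low. Their mean level ran from 0.5 to 30.5 FPKM with a median of 1.92 FPKM, while that of the partners ran from 0.222 to 237 FPKM with a median of 13.5 FPKM. There were 16 members between 0.5 and 1 FPKM, 26 between 1 and 3, and 6 at 10 FPKM or above. ZNF236-DT, beside the gene of a zinc finger protein, was the most abundant at 30.5 FPKM, followed by PCCA-DT, GARS1-DT, GMDS-DT, RAB30-DT and MAFG-DT. Just inside the limit stood SPAG16-DT at 0.5 FPKM, and just outside it RABGAP1L-DT at 0.478 FPKM and IDH2-DT at 0.467 FPKM.

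A divergent transcript reached a median of 0.153 of the level of its partner (per length, ratio of the mean FPKM over 6 libraries), and 23 of 59 were at 0.1 or less. The ratio was highest, at 7.39, for SH3TC2-DT, whose partner was nearly silent at 0.222 FPKM. In 6 pairs the non-coding direction was the more abundant one, namely SH3TC2, PCCA at 3.89, RAB30 at 3.72, ZNF236 at 2.80, GMDS at 1.22 and CHKB at 1.21. Across the 59 pairs the levels of both genes were weakly related (Spearman rho 0.15, a description over pairs that share the 6 libraries). Low levels went with a wider spread between libraries, with a median coefficient of variation of 14.3% in CAFS-CM and 17.0% in CAFR-CM, against 4.39% and 6.0% for the partners. The widest in CAFR-CM was FBXO30-DT, at 1.69, 0.46 and 0.31 FPKM, and the narrowest CCDC84-DT, at 4.1, 3.95 and 3.99 FPKM.

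**Figure D2:**
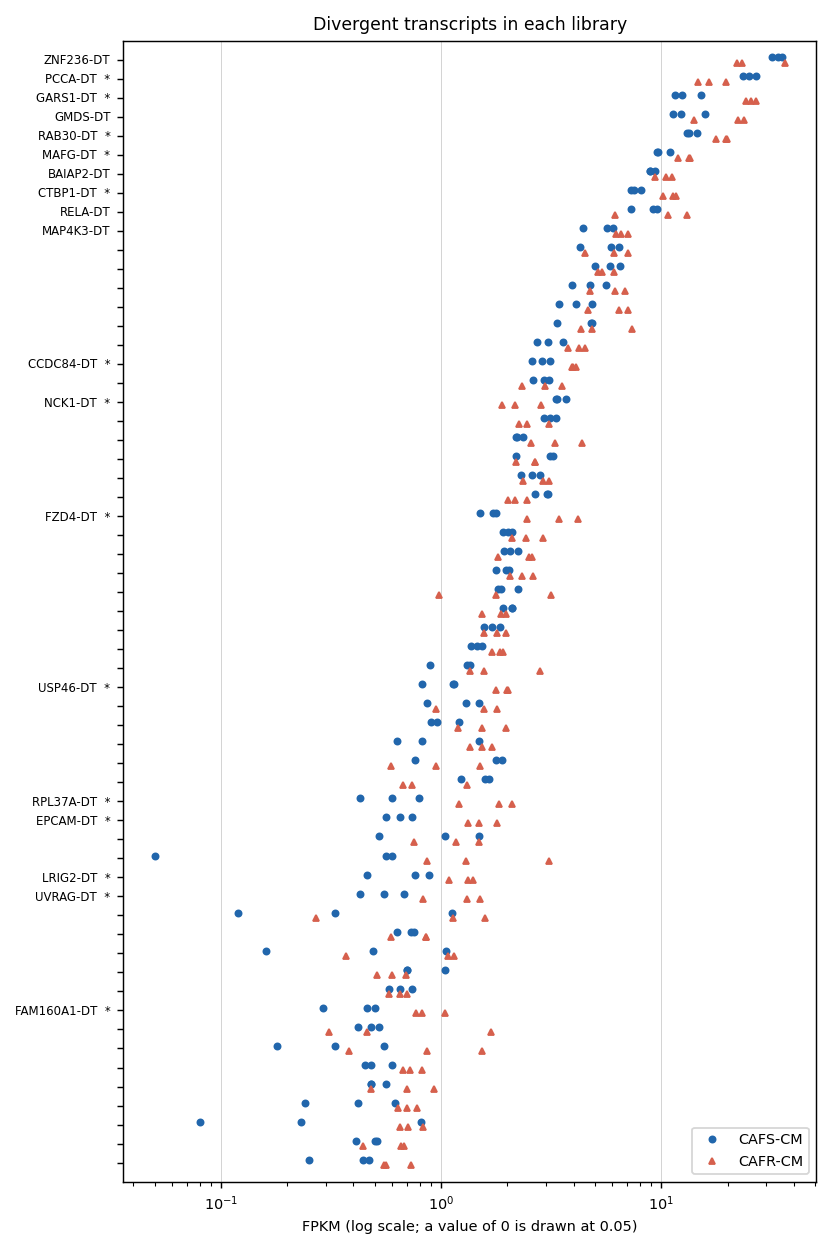
FPKM of the 59 divergent transcripts (rows, ordered by mean level) in each library on a log scale, with CAFS-CM as circles and CAFR-CM as triangles. The 10 most abundant and the 14 that passed the test are named, and an asterisk marks the 14 that passed the test, from PCCA-DT and GARS1-DT near the top to FAM160A1-DT below 1 FPKM, and their groups do not overlap.

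With CAFR-CM, 12 divergent transcripts were higher and 2 were lower than with CAFS-CM, and 45 did not pass (limma on log2(FPKM + 1) across all 23608 genes above 0.1 FPKM in at least 3 libraries, adjusted p under 0.05). The higher ones lay beside genes of protein synthesis (GARS1, RPL37A), surface receptors and adhesion (FZD4, EPCAM, LRIG2), transcription (CTBP1, MAFG), vesicle traffic and autophagy (RAB30, UVRAG, FAM160A1), ubiquitin removal (USP46) and splicing (CCDC84). The lower ones lay beside PCCA, a mitochondrial carboxylase subunit, and NCK1, a signalling adaptor. In bulk RNA, fewer cells that carry a transcript and less of it per cell cannot be told apart. The share called, 23.7%, was near the background of 26.2% of all genes tested and below that of 33.6% of genes with a mean of at least 0.5 FPKM. By direction, 20.3% of the members were higher, against 15.1% and 18.6%, and 3.39% were lower, against 11.1% and 15%. The members' log2 fold changes had a median of 0.22 (all genes tested, 0.06) and ran from -0.55 to 0.94, none beyond 1 in either direction on this scale, and 46 were above 0 and 13 below. With a pseudocount of 0.1 in place of 1 they ran from -0.70 to 2.18, with 11 higher and 2 lower, and 5 were beyond 1. Of these RPL37A-DT (1.36) and EPCAM-DT (1.12) passed the test, and MRPS30-DT (2.18), CD2BP2-DT and CCDC15-DT did not. Of the 59 members, groups did not overlap for 23 higher and 4 lower. The backgrounds were 26.4% higher and 16.8% lower among all genes tested, and 29% and 22% among genes averaging 0.5 FPKM or more. Among genes at 1 to 3 FPKM, groups did not overlap for 1134 higher and 198 lower of 3145. When libraries were put on one scale by cyclic loess, which removes differences that depend on level, 8 members were higher and 4 lower, 37 stood above 0 and the median was 0.11. Leaving out CAFS-CM replicate 3 left 7 higher and 1 lower, and leaving out CAFS-CM replicate 1, CAFS-CM replicate 2 or CAFR-CM replicate 3 also left 1 lower.

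Members could enter the set through 1 group only. Of the 51 with at least 0.5 FPKM in both groups, 11 were higher and 2 lower. Another 8 had a mean under 0.5 FPKM in CAFS-CM and none in CAFR-CM, and FAM160A1-DT was called among these 8. Low level itself went with the direction of change over all genes. Among genes tested at 1 to 3 FPKM, 20.5% were higher and 2.26% lower (median log2 fold change 0.18), whereas at 40 FPKM or more 16.6% were higher and 37.8% lower (median -0.08). The divergent transcripts at 1 to 3 FPKM counted 4 higher and 1 lower of 26, with a median of 0.12, those at 0.5 to 1 FPKM 3 higher and 0 lower of 16 (all genes there 12.8% and 1.16%), those at 3 to 10 FPKM 2 higher and 0 lower of 11 (21.4% and 8.1%), and those at 10 to 40 FPKM 3 higher and 1 lower of 6 (18.5% and 24.7%). Among other lncRNA names at the same minimum level the counts were 62 higher and 10 lower of 314 tested antisense names (22.9% called) and 54 higher and 8 lower of 283 LINC names (21.9% called). No difference between these sets was tested.

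**Figure D3:**
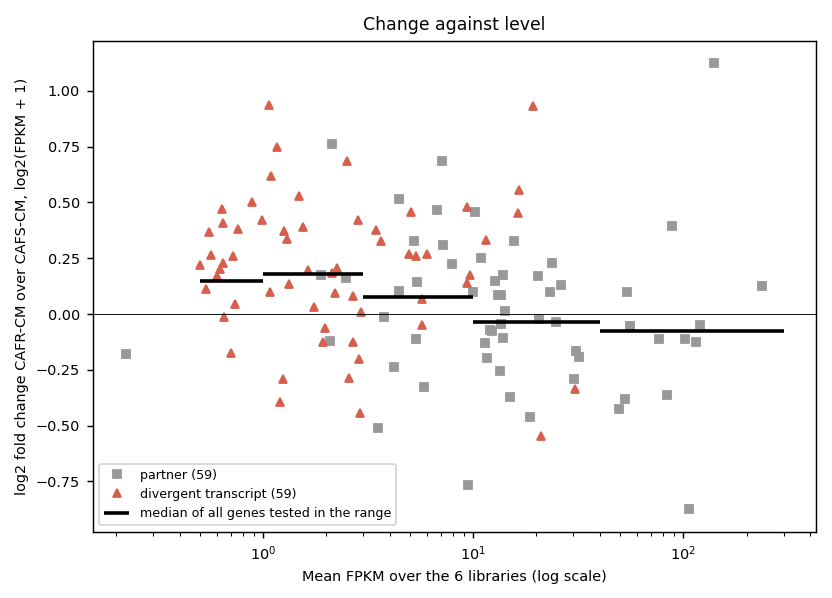
log2 fold change (CAFR-CM over CAFS-CM, on log2(FPKM + 1), y axis) against mean FPKM on a log scale (x axis) for the 59 divergent transcripts (triangles) and 59 partners (squares), with bars at the median of all genes tested in each range. The bars run from 0.15 at 0.5 to 1 FPKM and 0.18 at 1 to 3 FPKM down to -0.08 at 40 FPKM and above, and most triangles lie in the low ranges.

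GARS1 was among the 3 pairs in which both genes were higher with CAFR-CM. It encodes glycyl-tRNA synthetase, which charges tRNA with glycine. The nearest GENCODE starts of this pair lie 23 bases apart, but the RefSeq starts lie 16956 bases apart. Whether both RNAs came from 1 promoter was not tested. GARS1-DT (7:30516309-30595286, minus strand) measured 12.44, 15.08 and 11.49 FPKM with CAFS-CM and 25.53, 24.23 and 26.92 FPKM with CAFR-CM. The lowest CAFR-CM library was thus well above the highest CAFS-CM library, and the mean rose 1.97-fold from 13.003 ± 1.86 to 25.6 ± 1.35 FPKM (SD, n = 3, log2 fold change 0.93, SE 0.10, limma adjusted p = 0.00082). GARS1 itself measured 85.11, 89.36 and 88.14 against 188.29, 190.31 and 197.52 FPKM, a 2.19-fold rise (log2 fold change 1.12, SE 0.04, limma adjusted p = 7.75e-06), and was the only partner beyond a log2 fold change of 1 on the log2(FPKM + 1) scale, while with a pseudocount of 0.1 EPCAM was beyond it too (1.14). The ratio of GARS1-DT to GARS1 was 0.146, 0.169 and 0.130 with CAFS-CM and 0.136, 0.127 and 0.136 with CAFR-CM, so the groups overlapped in the ratio. Exons of this pair share 312 bases (1.01% of GARS1-DT), and whether the counting used strand is unknown. Reads from these bases cannot be told apart, and their part in these values was not tested.

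FZD4, a receptor for Wnt ligands and Norrin, and EPCAM, an adhesion molecule of epithelia, were the other pairs with both genes higher. FZD4-DT (11:86955616-87021909, plus strand) measured 1.78, 1.51 and 1.73 FPKM with CAFS-CM and 2.46, 4.18 and 3.42 FPKM with CAFR-CM, a 2.00-fold rise (log2 fold change 0.69, SE 0.15, limma adjusted p = 0.0181). FZD4 measured 5.67, 4.96 and 5.75 against 7.22, 8.39 and 8.18 FPKM (log2 fold change 0.47, SE 0.08, limma adjusted p = 0.00731). Neither gene had overlapping groups, but FZD4-DT did not pass without CAFS-CM replicate 2 or without CAFS-CM replicate 3 (highest limma adjusted p over the alternatives 0.0628, lowest 0.0046). EPCAM-DT (2:47192405-47345074, minus strand) measured 0.74, 0.56 and 0.65 against 1.8, 1.49 and 1.32 FPKM, a 2.36-fold rise (log2 fold change 0.62, SE 0.10, limma adjusted p = 0.00548). EPCAM was itself low, at 0.72, 1.85 and 1.49 against 3.11, 2.58 and 3.05 FPKM (log2 fold change 0.76, SE 0.19, limma adjusted p = 0.026), and did not pass without CAFS-CM replicate 3, CAFR-CM replicate 1 or CAFR-CM replicate 3 (limma adjusted p from 0.0216 to 0.0652 over the alternatives). EPCAM also did not pass without the filter on low values, with the replicate number as a block or under cyclic loess. Its call was kept in 5 of 11 alternatives.

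**Figure D4:**
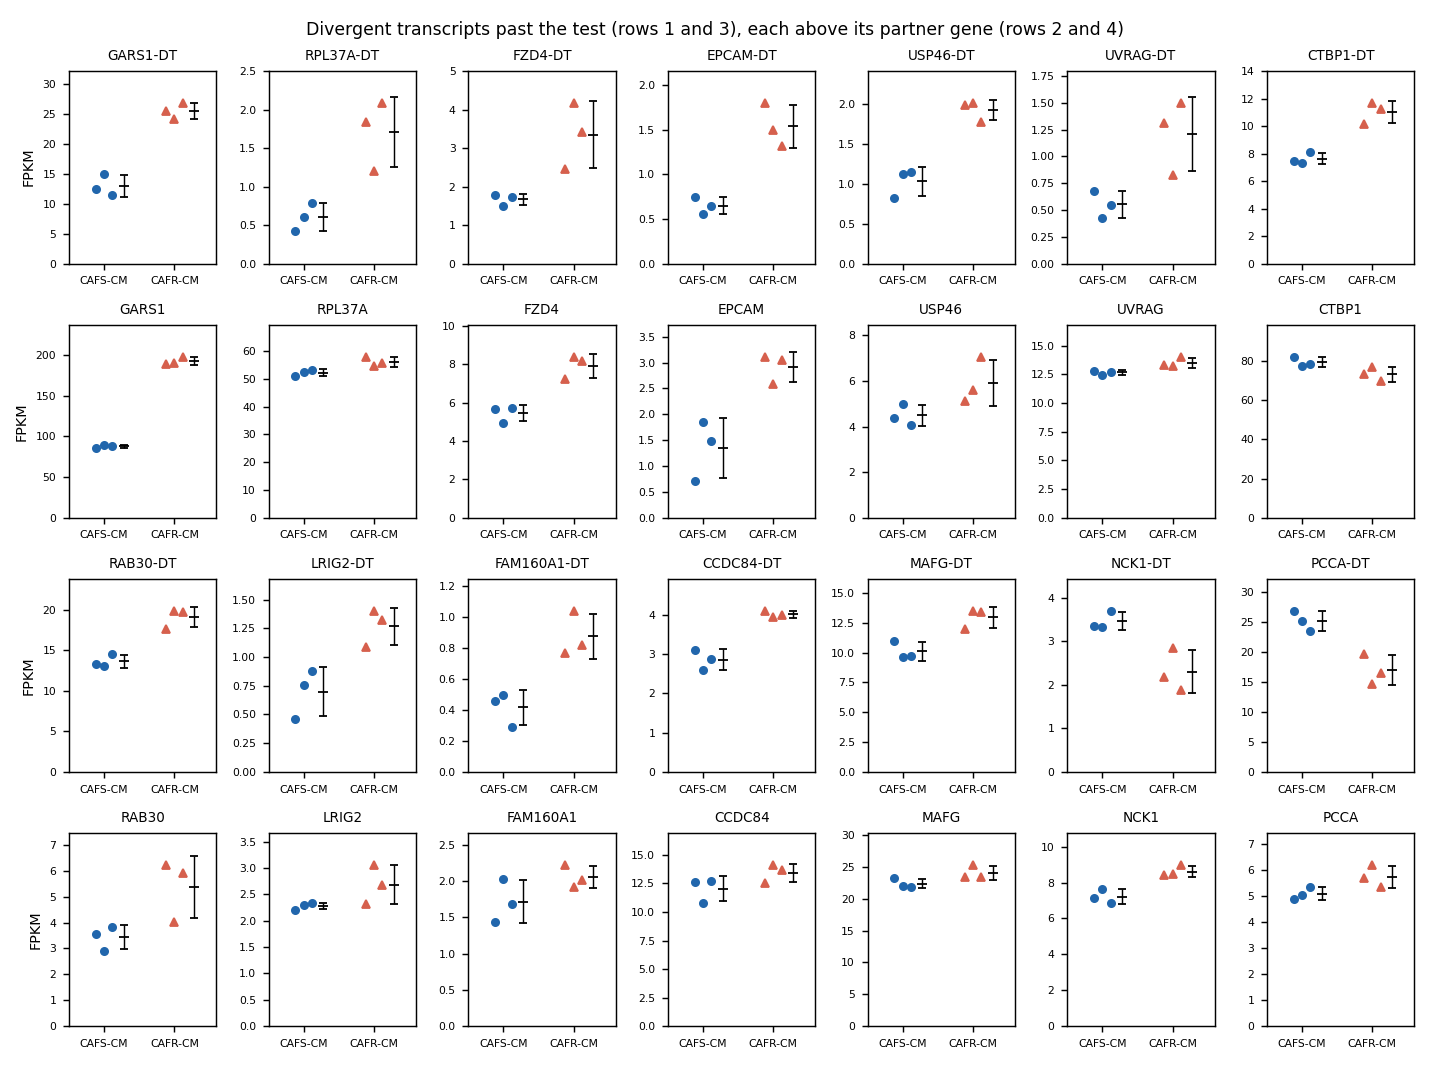
FPKM per library (points), mean and SD (bars) of the 14 divergent transcripts that passed the test, each above its partner, with CAFS-CM on the left of each panel and CAFR-CM on the right. GARS1-DT rises from 11.49 to 15.08 FPKM to 24.23 to 26.92 FPKM together with GARS1, whereas PCCA-DT falls while PCCA overlaps between the groups.

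In 9 other pairs the divergent transcript was higher and the partner did not pass. RPL37A-DT (2:216479030-216498770, minus strand), beside the gene of a protein of the large ribosomal subunit, measured 0.43, 0.6 and 0.79 FPKM with CAFS-CM and 1.84, 1.21 and 2.09 FPKM with CAFR-CM. Its mean rose 2.82-fold from 0.607 ± 0.180 to 1.71 ± 0.453 FPKM (SD, n = 3, log2 fold change 0.75, SE 0.15, limma adjusted p = 0.0122). RPL37A measured 50.97, 52.48 and 53.14 against 57.82, 54.55 and 55.68 FPKM, a log2 fold change of 0.10 (limma adjusted p = 0.0922). The groups did not overlap for either gene, and the ratio of transcript to partner was higher in every CAFR-CM library than in any CAFS-CM library.

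USP46-DT (4:52659406-52661668, plus strand) measured 0.82, 1.13 and 1.15 FPKM with CAFS-CM and 1.99, 2.02 and 1.78 FPKM with CAFR-CM, a 1.87-fold rise (log2 fold change 0.53, SE 0.10, limma adjusted p = 0.00979). USP46, a deubiquitinase, measured 4.39, 5 and 4.08 against 5.1, 5.59 and 7.05 FPKM (log2 fold change 0.33, limma adjusted p = 0.0953). RAB30-DT (11:83072052-83107789, plus strand) measured 13.3, 13.13 and 14.59 against 17.7, 19.85 and 19.77 FPKM, a 1.40-fold rise (log2 fold change 0.45, SE 0.06, limma adjusted p = 0.00292). RAB30, a small GTPase of the Golgi, measured 3.55, 2.92 and 3.83 against 6.22, 4.02 and 5.93 FPKM (log2 fold change 0.51, SE 0.16, limma adjusted p = 0.0532). For RAB30 the difference of the partner was as large as that of the transcript and its libraries spread more widely, and the ratio of the pair overlapped between the groups.

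CTBP1 encodes a transcriptional corepressor. CTBP1-DT (4:1248877-1288856, plus strand) measured 7.5, 7.31 and 8.12 FPKM with CAFS-CM and 10.17, 11.71 and 11.29 FPKM with CAFR-CM, a 1.45-fold rise (log2 fold change 0.48, SE 0.07, limma adjusted p = 0.00336). CTBP1 measured 82.07, 77.28 and 78.63 against 73.14, 77.15 and 69.6 FPKM and did not pass (log2 fold change -0.11, limma adjusted p = 0.126, and -0.02 under cyclic loess). The ratio went from 0.0914, 0.0946 and 0.103 to 0.139, 0.152 and 0.162. Exons of this pair share 701 bases (6.37% of CTBP1-DT), from which reads cannot be told apart.

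The other 5 higher transcripts were smaller or less stable. CCDC84-DT (11:118994824-118998004, minus strand), beside the gene of a minor spliceosome component, measured 3.12, 2.6 and 2.87 against 4.1, 3.95 and 3.99 FPKM (log2 fold change 0.38, SE 0.08, limma adjusted p = 0.0163). MAFG-DT (17:81927829-81930753, plus strand), beside the gene of a small Maf transcription factor, measured 10.99, 9.61 and 9.69 against 11.95, 13.48 and 13.41 FPKM (log2 fold change 0.33, SE 0.07, limma adjusted p = 0.0174). UVRAG-DT (11:75803431-75815406, minus strand), beside a gene of endosome traffic and autophagy, measured 0.68, 0.43 and 0.55 against 1.31, 0.83 and 1.5 FPKM (log2 fold change 0.50, SE 0.14, limma adjusted p = 0.0353). In all of these every CAFR-CM library was above every CAFS-CM library. Exons of UVRAG-DT and UVRAG share 197 bases (11.75% of UVRAG-DT), from which reads cannot be told apart, and UVRAG averaged 13.1 FPKM. The part of these reads in the values of UVRAG-DT was not tested. LRIG2-DT (1:113011687-113073113, minus strand), beside the gene of a membrane protein with leucine-rich repeats, measured 0.46, 0.76 and 0.88 against 1.09, 1.4 and 1.32 FPKM (log2 fold change 0.42, SE 0.12, limma adjusted p = 0.0417). FAM160A1-DT (4:151407551-151408835, minus strand), beside the gene of a protein that binds Hook adaptors of vesicle transport, measured 0.46, 0.5 and 0.29 against 0.77, 1.04 and 0.82 FPKM (log2 fold change 0.41, SE 0.10, limma adjusted p = 0.0234). Their partners CCDC84, MAFG, UVRAG, LRIG2 and FAM160A1 had log2 fold changes of 0.15, 0.10, 0.09, 0.16 and 0.17, none past the test.

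Each of these 5 calls was lost when certain libraries were left out, and those of CCDC84-DT, UVRAG-DT, LRIG2-DT and FAM160A1-DT also under cyclic loess. The last 3 did not pass without the filter on low values, MAFG-DT not with the replicate block, and LRIG2-DT neither with a pseudocount of 0.1 nor with equal FPKM totals. CCDC84-DT did not pass without CAFS-CM replicate 2 or 3 (limma adjusted p from 0.0131 to 0.0956 over the alternatives), nor MAFG-DT without CAFS-CM replicate 2 or 3 or CAFR-CM replicate 2 or 3 (0.0134 to 0.063). UVRAG-DT passed without CAFR-CM replicate 2 but not without any other library (0.0116 to 0.11). LRIG2-DT passed without CAFS-CM replicate 3 or CAFR-CM replicate 1 but not without the others (0.0405 to 0.133), and FAM160A1-DT did not pass without CAFS-CM replicate 1, CAFS-CM replicate 3 or CAFR-CM replicate 2 (0.03 to 0.0836). Of the 14 called transcripts, 7 passed under all 11 alternatives, namely GARS1-DT, RPL37A-DT, EPCAM-DT, USP46-DT, CTBP1-DT, RAB30-DT and PCCA-DT.

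PCCA-DT was the more abundant of the 2 transcripts that fell, and lies beside the gene of the alpha subunit of propionyl-CoA carboxylase. PCCA-DT (13:100053074-100088972, minus strand) measured 26.83, 25.12 and 23.43 FPKM with CAFS-CM and 19.64, 14.75 and 16.52 FPKM with CAFR-CM. Its mean went from 25.1 ± 1.70 to 17.0 ± 2.48 FPKM (SD, n = 3), 0.675 of the CAFS-CM level (log2 fold change -0.55, SE 0.10, limma adjusted p = 0.00898). PCCA measured 4.88, 5.03 and 5.34 against 5.68, 6.17 and 5.34 FPKM (log2 fold change 0.14, limma adjusted p = 0.208). The transcript outweighed its partner by 5.50, 4.99 and 4.39 times with CAFS-CM and by 3.46, 2.39 and 3.09 times with CAFR-CM.

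NCK1, which encodes an SH2 and SH3 adaptor that links receptors to actin, was the only pair called in opposite directions. NCK1-DT (3:136835345-136862618, minus strand) fell from 3.35, 3.32 and 3.69 FPKM to 2.17, 2.84 and 1.89 FPKM (log2 fold change -0.44, SE 0.12, limma adjusted p = 0.0366). NCK1 rose from 7.14, 7.66 and 6.88 FPKM to 8.42, 8.46 and 8.97 FPKM (log2 fold change 0.23, SE 0.06, limma adjusted p = 0.0368). The ratio of NCK1-DT to NCK1 went from 0.469, 0.433 and 0.536 to 0.258, 0.336 and 0.211, without overlap. Exons of this pair share 146 bases (2.51% of NCK1-DT), from which reads cannot be told apart. Both calls were near the threshold. With libraries left out in turn, NCK1-DT passed only without CAFR-CM replicate 2 (limma adjusted p from 0.0121 to 0.113 over the alternatives), and NCK1 lost its call whichever library was left out (0.0329 to 0.122). NCK1-DT also did not pass without the filter on low values or with the replicate block. NCK1 did not pass with the replicate block, under cyclic loess or with equal FPKM totals.

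Several abundant members did not pass. ZNF236-DT (18:76794732-76822295, minus strand) measured 35.3, 31.97 and 34.04 against 23.23, 36.44 and 22.02 FPKM (log2 fold change -0.34, SE 0.18, limma adjusted p = 0.212), with CAFR-CM replicate 2 above all CAFS-CM libraries and the other CAFR-CM libraries below them. ZNF236 was higher, at 10.02, 10.37 and 9.24 against 12.69, 11.83 and 11.27 FPKM (log2 fold change 0.25, limma adjusted p = 0.0319), a call that was kept without CAFR-CM replicate 3 and lost without each of the other libraries (0.031 to 0.102 over the alternatives). The call of ZNF236 was also lost without the filter on low values and under cyclic loess. GMDS-DT, beside the gene of GDP-mannose dehydratase, which begins the synthesis of GDP-fucose, measured 12.24, 11.31 and 15.74 against 22.3, 23.69 and 14.05 FPKM (log2 fold change 0.56, SE 0.20, limma adjusted p = 0.091), with CAFR-CM replicate 3 among the CAFS-CM values. RELA-DT, beside the gene of the p65 subunit of NF-kB, measured 7.26, 9.19 and 9.57 against 10.74, 13.11 and 6.16 FPKM (log2 fold change 0.14, SE 0.24, limma adjusted p = 0.72). Its CAFR-CM libraries included both the highest and the lowest value, and RELA had a log2 fold change of -0.11 (limma adjusted p = 0.0748). MAP4K3-DT, beside the gene of a kinase of nutrient and stress signalling, had a log2 fold change of 0.27 (limma adjusted p = 0.127).

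MRPS30-DT, beside the gene of a mitochondrial ribosomal protein, had the highest log2 fold change of the members, 0.94, and did not pass (SE 0.32, limma adjusted p = 0.0725). It was listed at 0 in CAFS-CM replicate 1 and measured 0.56 and 0.6 FPKM in the other CAFS-CM libraries, and 0.86, 1.3 and 3.08 FPKM with CAFR-CM. The CAFR-CM libraries were all higher but spread over a wide range. MRPS30 was lower, at 33.32, 33.61 and 30.94 against 28.21, 29.94 and 28.65 FPKM (log2 fold change -0.17, limma adjusted p = 0.0383), and kept this call without CAFS-CM replicate 3 or CAFR-CM replicate 2 but not without the other libraries (0.0353 to 0.135 over the alternatives). The call of MRPS30 was also lost without the filter on low values, with the replicate block, under cyclic loess and with equal FPKM totals.

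The partner genes differed in both directions. With CAFR-CM 11 were higher and 13 lower (40.7% called, against 26.2% of all genes tested and 33.6% of genes averaging 0.5 FPKM or more), with a median log2 fold change of -0.02. At 10 to 40 FPKM 4 of 26 were higher and 5 lower (34.6% called, against 43.2% of all genes there). At 40 FPKM or more 2 of 13 were higher and 5 lower (53.8%, against 54.4%). In these 2 ranges the partners' shares were near or below those of all genes. At 3 to 10 FPKM the share was above that of all genes, with 4 of 15 higher and 3 lower (46.7%, against 29.5%). At 1 to 3 FPKM 1 of 4 was higher and 0 lower (25.0%, against 22.8%). Besides GARS1, FZD4, EPCAM, NCK1 and ZNF236, the higher partners were SPAG16 (log2 fold change 0.69), FBXO30 (0.46), BARX1 (0.39), EDIL3 (0.33), VPS13B (0.31) and NSMCE1 (0.23). Leaving out CAFS-CM replicate 3 left 7 higher. Among the lower partners was FLVCR1, a membrane transporter of choline and heme.

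FLVCR1 fell from 11.81, 12.7 and 11.84 FPKM to 6.68, 6.86 and 6.58 FPKM (log2 fold change -0.77, SE 0.05, limma adjusted p = 0.000182), beside FLVCR1-DT at 1.57, 1.85 and 1.71 against 1.56, 1.97 and 1.8 FPKM (log2 fold change 0.03, limma adjusted p = 0.831). The coding gene was lower in every CAFR-CM library, whereas the groups overlapped for its divergent transcript.

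Among the abundant members, partners of BAIAP2-DT and CRIM1-DT were also lower. BAIAP2, an actin adaptor, fell from 57.73, 53.94 and 59.28 FPKM to 42.48, 42.11 and 41.78 FPKM (log2 fold change -0.43, SE 0.04, limma adjusted p = 0.000726), and BAIAP2-DT measured 9.34, 8.88 and 8.9 against 10.52, 9.41 and 11.18 FPKM (log2 fold change 0.18, limma adjusted p = 0.113), without overlap between the groups but not past the test. CRIM1, a membrane protein that binds BMP ligands, fell from 93.22, 94.44 and 95.32 FPKM to 70.87, 74.73 and 74.05 FPKM (log2 fold change -0.36, SE 0.03, limma adjusted p = 0.00057), and CRIM1-DT had a log2 fold change of 0.07 (limma adjusted p = 0.82). Other lower partners had log2 fold changes of -0.51 for LHX1, -0.46 for FAM111A, -0.38 for ODC1, -0.33 for EDRF1, -0.29 for CD2BP2, -0.26 for NUP50 and -0.19 for EIF3J.

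Both genes were called in the same direction in 3 pairs (GARS1, FZD4 and EPCAM, all higher) and in opposite directions in 1 (NCK1). Only the divergent transcript was called in 10 pairs, only the partner in 20 and neither in 25, and no pair had both genes called lower. Without CAFS-CM replicate 3, 1 pair was called in the same direction and 0 in opposite directions, and without CAFR-CM replicate 2, 2 pairs were called in opposite directions. The sign of the log2 fold change was shared by 29 of 59 pairs. Across pairs the changes had a Pearson r of 0.311 and a Spearman rho of 0.27, and without GARS1-DT 0.209 and 0.234 (58 pairs). These are descriptions over pairs that share libraries and a level difference between transcripts and partners.

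The change of the transcript was above that of its partner in 42 of 59 pairs, by a median of 0.23 on the log2 scale. The ratio of transcript to partner within a library was higher in all CAFR-CM than in all CAFS-CM libraries in 22 pairs and lower in 5 (PCCA, NCK1, ZNF236, ITGB1 and MAN1B1). These ratios were not tested, and no background of other pairs of a low and a high gene was computed. The transcripts had a median level of 1.92 FPKM and the partners of 13.5 FPKM. Over all genes the median log2 fold change was 0.18 at 1 to 3 FPKM and -0.03 at 10 to 40 FPKM. The median log2 fold changes of transcripts and partners were 0.22 and -0.02, and under cyclic loess 0.11 and 0.01. Summed over the members, the divergent transcripts came to 223.9, 221.3 and 228.2 FPKM with CAFS-CM and 257.9, 276.5 and 254.6 FPKM with CAFR-CM. The partners came to 1820, 1835 and 1847 FPKM against 1791, 1877 and 1856 FPKM. The sum of the transcripts was thus higher in every CAFR-CM library, while that of the partners overlapped. Both sums are weighted to abundant genes and do not describe the set. GARS1 alone stood at 85.11 to 89.36 FPKM with CAFS-CM and at 188.29 to 197.52 FPKM with CAFR-CM, although more partners were called lower than higher. GARS1-DT stood at 11.49 to 15.08 and 24.23 to 26.92 FPKM, whereas PCCA-DT fell. Sums without the GARS1 pair were not computed.

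**Figure D5:**
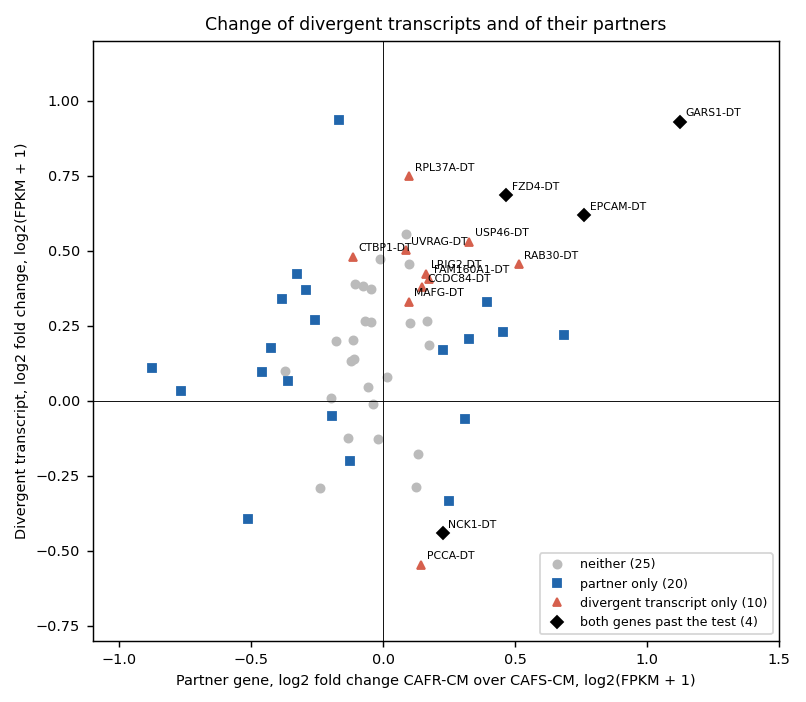
log2 fold change (CAFR-CM over CAFS-CM, on log2(FPKM + 1)) of the partner (x axis) against that of its divergent transcript (y axis) for 59 pairs, marked by which gene passed the test. GARS1-DT, FZD4-DT and EPCAM-DT lie in the upper right and NCK1-DT in the lower right, and the 20 pairs with only the partner called are spread along the x axis.

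The genes that terminate or degrade upstream transcripts were examined in 5 lists. Of 62 genes, 3 were higher and 22 lower (40.3% called, median log2 fold change -0.08). By direction 4.84% of the listed genes were higher and 35.5% lower. Of all genes tested at 10 to 40 FPKM 43.2% were called (18.5% higher and 24.7% lower), and at 40 FPKM or more 54.4% (16.6% and 37.8%). The share called in the lists was thus near or below these. Their share higher was below both ranges, and their share lower was above that at 10 to 40 FPKM, where most listed genes stood. It was below that at 40 FPKM or more. Of all genes tested 15.1% were higher and 11.1% lower, and of those at 3 to 10 FPKM 21.4% and 8.1%. Under cyclic loess 6 of the listed genes were higher and 21 lower. In the nuclear exosome 1 of 13 was higher (7.69%) and 5 were lower (38.5%). EXOSC5, a subunit of its ring, fell from 19.53, 19.19 and 17.35 FPKM to 11.69, 11.72 and 11.72 FPKM (log2 fold change -0.63, limma adjusted p = 0.000424), EXOSC4 fell (-0.33, limma adjusted p = 0.0075) and EXOSC6 rose (0.26, limma adjusted p = 0.00696). The catalytic subunit DIS3 had a log2 fold change of -0.08 (limma adjusted p = 0.708).

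Among 12 adaptor genes of the exosome and the cap-binding complex 0 were higher and 4 lower (33.3%). Of all genes, 8.1% were lower at 3 to 10 FPKM, 24.7% at 10 to 40 FPKM, where most of these 12 stood, and 37.8% at 40 FPKM or more. SRRT (ARS2), which joins the cap-binding complex to RNA decay, fell from 75.94, 75.37 and 74.98 FPKM to 54.27, 52.58 and 54.43 FPKM (log2 fold change -0.48, limma adjusted p = 0.000129), and ZC3H18, which bridges it to the exosome, fell from 36.94, 36.67 and 32.82 FPKM to 26.62, 24.46 and 22.33 FPKM (log2 fold change -0.52, limma adjusted p = 0.0031). ZC3H3 fell as well (-0.29, limma adjusted p = 0.0163, lost without CAFS-CM replicate 2 or 3, with 0.0135 to 0.0578 over the alternatives). MTREX, the helicase shared by the nuclear adaptor complexes, measured 19.71, 21.48 and 23.14 against 20.53, 22.01 and 21.57 FPKM (limma adjusted p = 0.97).

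Of 17 Integrator and Restrictor genes 1 was higher (INTS6, 0.29) and 4 were lower (23.5% lower, near the 24.7% of all genes at 10 to 40 FPKM), led by WDR82 (-0.24), INTS3 (-0.23) and C7orf26, the INTS15 subunit (-0.24). Of the 3 U1 snRNP proteins SNRPC (-0.28) and SNRNP70 (-0.34) were lower (66.7%). All 3 stood above 40 FPKM, where 37.8% of all genes were lower. In cleavage, polyadenylation and termination 1 of 17 was higher, PCF11 (0.32), and 7 were lower, led by CPSF1 (-0.30) and CSTF2 (-0.30). The share lower in this list was 41.2%. It was 24.7% of all genes at 10 to 40 FPKM, where most genes of the list stood, and 37.8% at 40 FPKM or more. Whether these differences bear on the divergent transcripts was not tested.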

How the data were processed

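Whole-transcriptome RNA sequencing was analysed for 6 samples, 3 per group, which the study calls biological replicates. The authors deposited FPKM per gene with 2 decimals, without read counts, and all 97767 rows of their table include 55272 circular RNA rows without a value. The submitters' processing notes name HISAT2 2.0.4, Bowtie2 2.2.5, RSEM 1.2.12, DESeq2 1.4.5 and GRCh38.p13. Genes above 0.1 FPKM in at least 3 samples (23608 of 42495) were tested with limma 3.58.1 (R 4.3.3) on log2(FPKM + 1) with a mean-variance trend, and p-values were adjusted by Benjamini-Hochberg over all of them. Fold changes on this scale understate the change of low genes. Since each medium came from 1 CAF line, p-values reflect only how these samples spread. The script was tested on simulated data. Other pseudocounts, filters, scalings, a replicate block and the omission of each library were tried. The members and lists were chosen with earlier results of these data known. Named were transcripts past the test without overlap, the 10 most abundant, pairs called in opposite directions or with a partner beyond a log2 fold change of 1, and the 3 smallest adjusted p of each decay list. Others named were chosen after their values were seen. Some results are not reported here.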

Additional observations from a re-analysis of the deposited data

How the results depend on the processing

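With the replicate number as a block 13 divergent transcripts were higher and 1 lower, 0 pairs were called in opposite directions, and 2891 and 2340 of all genes were higher and lower, against 3560 and 2626 without it. The sample titles do not say whether the numbers pair the samples. Same-numbered samples deviated with r = 0.02, -0.028 and 0.062, and not every sample correlated best with its own number. With 3 samples per group these values show no clear shared deviation but cannot decide the pairing. Without a filter 9 transcripts were higher and 1 lower, and 0 pairs opposite. Cyclic loess gave 8 higher and 4 lower, ITGB1-DT and LHX1-DT being added to the latter, and 6 higher decay genes. Equal FPKM totals gave 0 opposite pairs. Beyond a log2 fold change of 1 on log2(FPKM + 1), 0 transcripts, 0 decay genes and 0 pairs were called in either direction, with 1 partner higher and 0 lower. With each library left out in turn, transcripts numbered 7 to 12 higher and 1 to 3 lower, partners 7 to 10 higher and 9 to 14 lower, pairs 1 to 4 in the same and 0 to 2 in opposite directions, and decay genes 2 to 3 higher and 17 to 22 lower. The log2 fold change turned negative for LRIG2 (-0.0081) and FLVCR1-DT (-0.13) under loess, for FLVCR1-DT without CAFS-CM replicate 1 (-0.0039) or CAFR-CM replicate 2 (-0.016), and for RELA-DT without CAFR-CM replicate 2 (-0.069), their highest values with a library left out being 0.091 for FLVCR1-DT and 0.42 for RELA-DT. The cause was not tested. Over 56 named genes and 11 alternatives, 534 values kept direction and side of the threshold, 69 no longer passed and 8 newly passed. FPKM without counts gives no counting error, which limits transcripts under 1 FPKM most.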

Other observations

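Of the 79 -DT rows below 0.5 FPKM on average, 37 passed the filter on low values, and 4 were higher and 0 lower with CAFR-CM (limma adjusted p under 0.05). A row this low passes the filter more readily when 1 group is higher, so the count is a description. RABGAP1L-DT measured 0.34, 0.36 and 0.25 against 0.6, 0.65 and 0.67 FPKM, and IDH2-DT 0.33, 0.24 and 0.39 against 0.67, 0.59 and 0.58 FPKM. AFDN-DT, beside the gene of the junction protein afadin, measured 0.16, 0.15 and 0.18 against 0.72, 0.52 and 0.46 FPKM. ADCY6-DT was listed at 0, 0 and 0.12 FPKM with CAFS-CM and at 0.42, 0.45 and 1.16 FPKM with CAFR-CM. All 4 were named after their values were seen.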
